A study of Mus musculus with 6 samples.

Results

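The 8 miRNAs mmu-miR-21a-5p, mmu-miR-150-5p, mmu-miR-142a-3p, mmu-miR-142a-5p, mmu-miR-146a-5p, mmu-miR-146b-5p, mmu-miR-223-3p and mmu-miR-155-5p were examined as miRNAs known for microglia and other immune cells. They were chosen by name, and their reads were all rows of the table that carried their label. These 8 are of 1101 miRNA labels in all, and they comprised 898 of 143934 read sequences, none of which carried another label. The samples were cortex and hippocampus combined from male C57BL/6J (BL6) mice of 2 months (2M, n = 3 libraries) and 18 months (18M, n = 3 libraries), with no transgene, deletion or treatment named in either group. In Ago-RP-Seq, Argonaute proteins, which carry small RNAs in the RNA-induced silencing complex (RISC), are pulled down with a GW182 peptide, and the short RNAs bound to them (R-sRNAs) are sequenced. The comparison asks which RISC-bound short RNAs of brain cells differ between young and old mice. The labels number the libraries as replicates and do not say that each came from a separate animal. The p-values therefore set a difference between ages against the spread between these libraries, which may not be that between animals.

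Microglia are the resident macrophages of the brain, and few other blood-derived cells lie in healthy brain tissue beyond those in its vessels and membranes. miR-142a is made almost only in cells of the blood lineage. miR-223 is known from neutrophils and other myeloid cells, and miR-150 from mature B and T lymphocytes. miR-155 and miR-146a are induced in macrophages by inflammatory signals, miR-155 as a promoter of the response and miR-146a as a brake on it through its targets Irak1 and Traf6. miR-21a is found in many cell types, astrocytes and vessels among them, and is raised in injured and inflamed tissue. A miRNA finds its target mRNAs mainly by its seed, which begins at the second base, so that a read that starts 1 base earlier or later carries another seed.

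The mature sequences of 7 of the 8 (RefSeq, GRCm38.p6) are shown because the results turn on where reads start and end. Capitals mark bases 2 to 8, the seed.
mmu-miR-21a-5p: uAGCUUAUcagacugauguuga
mmu-miR-142a-3p: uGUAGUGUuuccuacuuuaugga
mmu-miR-142a-5p: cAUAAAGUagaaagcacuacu
mmu-miR-146a-5p: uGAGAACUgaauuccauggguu
mmu-miR-146b-5p: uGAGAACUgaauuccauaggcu
mmu-miR-223-3p: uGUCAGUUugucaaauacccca
mmu-miR-155-5p: uUAAUGCUaauugugauaggggu
Only mmu-miR-146a-5p and mmu-miR-146b-5p shared a seed among these 7. They differ at 2 of their 22 positions, the first at position 18, close to the 3′ end. mmu-miR-142a-3p and mmu-miR-142a-5p are the 2 arms of a single hairpin.

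In GENCODE M21 (GRCm38), the gene of miR-21a lies at chr11:86584067-86584158 on the minus strand, in a UTR exon of Vmp1, which encodes a membrane protein of autophagy. The gene of miR-142a lies at chr11:87756864-87756927 on the plus strand, in an intron of the lincRNA Mir142hg and opposite Mir142b on the other strand. Reads from a hairpin and its opposite-strand partner differ in sequence, and only labels of miR-142a were counted. The gene of miR-146a lies at chr11:43374397-43374461 on the minus strand and that of miR-150 at chr7:45121757-45121821 on the plus strand, both outside other annotated genes. The gene of miR-146b lies at chr19:46342762-46342870, in an intron of Mfsd13a. The genes of miR-155 and miR-223 lie in exons of the non-coding RNAs Mir155hg at chr16:84714140-84714204 and F630028O10Rik at chrX:96242817-96242926. The last 3 are on the plus strand.

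The libraries held 19272046 to 25080484 reads each, and 3 reads corresponded to 0.120 to 0.156 RPM, the unit of reads scaled to a common library total. Neuronal miR-124-3p stood at 92539 to 134320 RPM in all 6 libraries, as a marker of the labelled brain tissue. 2M replicate 1 stood apart for 2 miRNAs that are abundant in pituitary, with 1124 RPM of miR-375-3p against 31.0 to 42.2 RPM in the other 5 libraries, and 1397 RPM of miR-7a-5p against 254 to 314 RPM. Without that library, 0 of the 7 miRNAs tested here and 3 of all 474 were called.

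Together the 8 miRNAs made up 0.909% of all reads. Their sum was 8897, 8595 and 11737 RPM at 2M and 8548, 7771 and 9016 RPM at 18M. The groups overlapped, and 2M replicate 3 was the highest library. mmu-miR-21a-5p and mmu-miR-150-5p alone gave 85.9% to 89.8% of the sum in each library. Without mmu-miR-21a-5p, the other 7 summed to 4183, 4339 and 4047 RPM at 2M and to 3521, 3114 and 3640.5 RPM at 18M, every 18M library below every 2M library. Without mmu-miR-150-5p as well, the remaining 6 summed to 1089, 1215 and 1195 RPM at 2M and to 1137, 1046 and 1209 RPM at 18M, with overlap.

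Levels spanned more than 3 orders of magnitude on the RPM scale, where a read stands for a whole miRNA and needs no division by length. In order of the mean level over the 6 libraries, mmu-miR-21a-5p stood at rank 46 of 1101 miRNA labels and mmu-miR-150-5p at rank 67, with a mean 1.99-fold lower. They were followed by mmu-miR-142a-3p at rank 177 and mmu-miR-146a-5p at rank 182, which were not separated: the first exceeded the second in 3 of 6 libraries. Below them came mmu-miR-146b-5p at rank 212, mmu-miR-142a-5p at rank 267, mmu-miR-223-3p at rank 313 and mmu-miR-155-5p at rank 540. All other neighbours in this order kept it in 6 of 6 libraries, and their ranges did not overlap. The step from mmu-miR-223-3p down to mmu-miR-155-5p was 14.7-fold. Differences in how well each RNA is ligated into a library were not tested.

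**Figure D1:**
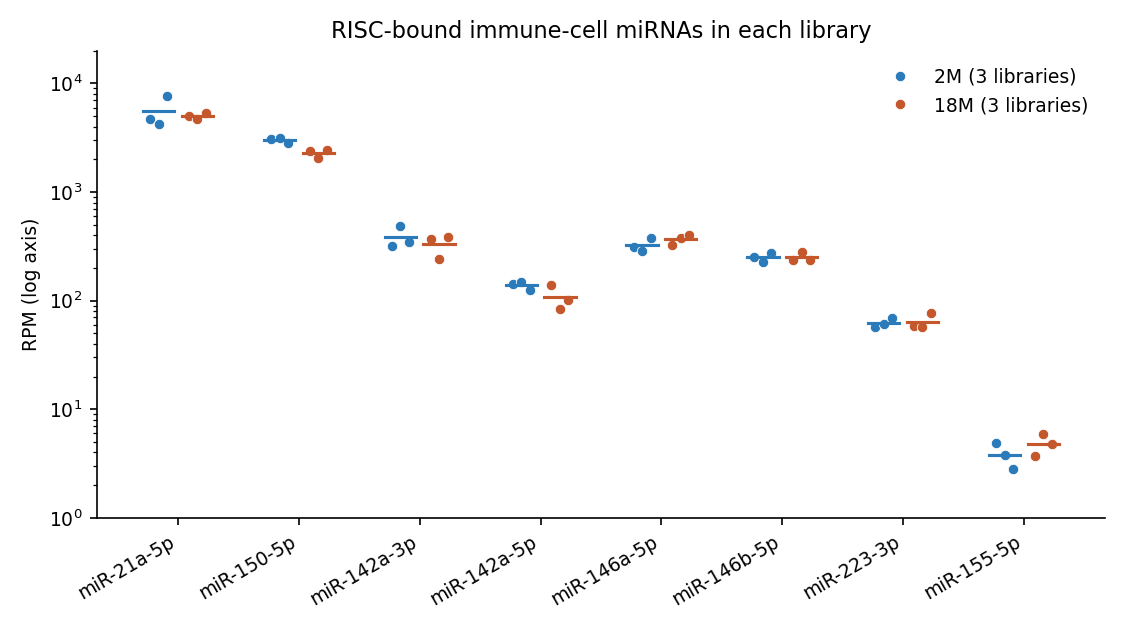
Level of each miRNA in RPM (log axis) in the 3 libraries at 2M (blue) and the 3 at 18M (orange), with bars at the group means. For mmu-miR-150-5p the 18M points, 2068 to 2431 RPM, all lie below the 2M points, 2852 to 3124 RPM, while the points of the other 7 miRNAs overlap between ages.

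Of the 8 miRNAs, 7 had a mean of at least 10 RPM and were tested with limma on log2(RPM + 1) together with all other miRNAs. None passed an adjusted p of 0.05, against 23 of all 474 miRNAs tested (4.85%). At an unadjusted p of 0.05, 1 of the 7 passed, against 17.9% of all miRNAs. The median log2 fold change (18M against 2M) of the 7 was -0.10, beside -0.07 over all 474. DESeq2 and edgeR on the recovered reads also called 0 of the 7, where they called 46 and 14 of the 474. At an unadjusted p of 0.05, 1 of the 7 passed with either tool, against 96 of the 474 with DESeq2 and 84 with edgeR.

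mmu-miR-150-5p was the 1 with an unadjusted p below 0.05. Its level was 3094, 3124 and 2852 RPM at 2M and 2384, 2068 and 2431 RPM at 18M. The mean over both ages was 7.41-fold above that of mmu-miR-142a-3p, the miRNA of the blood lineage, and their ranges did not overlap. Whether lymphocytes supplied the reads of mmu-miR-150-5p was not tested. Every 18M library was below every 2M library. The means were 3023 ± 149 RPM and 2294 ± 198 RPM (SD, n = 3), a log2 fold change of -0.40 (SE 0.12, 95% interval -0.69 to -0.11), with a limma p of 0.0150 that rose to 0.148 after adjustment. Groups without overlap in this direction were found for 1 of the 7 tested members and for 19.2% of all miRNAs, and in the other direction for 0 of the 7 and for 5.70% of all. In bulk tissue, fewer cells of a type and less RNA per cell cannot be told apart, and the libraries do not show which cells the reads came from.

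Blood and vessel miRNAs were measured beside it. The sum of 5 red blood cell miRNA labels was 2550 to 3689 RPM at 2M and 1307 to 2892 RPM at 18M, with overlap. Of these labels 4 were tested, of which miR-486a-5p and miR-486b-5p hold the same reads, and all 4 were lower on average with 0 called. Of 4 vessel miRNAs, all 4 were lower on average and 0 were called, their sum being 11390 to 17001 RPM at 2M and 10104 to 13607 RPM at 18M. The share of all 474 miRNAs that were lower on average was not counted, and their median log2 fold change was -0.07. The smooth muscle miRNAs miR-143-3p and miR-145a-5p were without overlap, with log2 fold changes of -0.32 (adjusted p = 0.291) and -0.42 (adjusted p = 0.171). The vessel miRNAs miR-126a-3p and miR-126a-5p overlapped, and 19.2% of all miRNAs were lower without overlap. The defining miR-451a of red blood cells stood at 830 to 2942 RPM, and no marker of either list was at 0. Their part in the mmu-miR-150-5p difference was not tested. In lists of other cell types, 1 of 4 neuronal and 2 of 3 oligodendrocyte miRNAs tested were lower on average. So were 1 of 2 of choroid plexus and 2 of 2 of pituitary, and 0 were called in each list.

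mmu-miR-21a-5p was measured at 4714, 4256 and 7689.8 RPM at 2M and at 5027, 4657 and 5376 RPM at 18M. 2M replicate 3 was high, and all other libraries lay close together. The log2 fold change was -0.10 (SE 0.23, interval -0.65 to 0.46, adjusted p = 0.848), and without 2M replicate 3 it was 0.16.

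The 2 arms of miR-142a, the pan-leukocyte miRNA, were lower on average at 18M, but both overlapped. mmu-miR-142a-3p stood at 317, 489 and 349.9 RPM at 2M and at 371, 243 and 384 RPM at 18M, with 18M replicate 2 the lowest library. Its log2 fold change was -0.22 (SE 0.24, interval -0.80 to 0.36, adjusted p = 0.679), and without 18M replicate 2 it was -0.0045. mmu-miR-142a-5p stood at 142, 147 and 126 RPM at 2M and at 140.3, 84.2 and 101 RPM at 18M. The log2 fold change of the 5p arm was -0.38 (SE 0.20, interval -0.85 to 0.09, adjusted p = 0.369). It was -0.21 without 18M replicate 2 and -0.58 without 18M replicate 1, where the unadjusted limma p was 0.0095 and the miRNA was not called.

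Neither brake nor promoter of the inflammatory response differed detectably by age. mmu-miR-146a-5p stood at 314, 286 and 375 RPM at 2M and at 328, 375 and 405 RPM at 18M, with overlap and a log2 fold change of 0.19 (SE 0.15, interval -0.17 to 0.55, adjusted p = 0.544). It was 0.10 without 2M replicate 2 and 0.29 without 2M replicate 3. Its paralog mmu-miR-146b-5p stood at 254, 228 and 272 RPM at 2M and at 237, 279.6 and 239 RPM at 18M, with a log2 fold change of 0.00 (SE 0.13, interval -0.30 to 0.31, adjusted p = 0.998). The intervals allow changes of up to 0.55 for the first and 0.31 for the second on the log2 scale. mmu-miR-155-5p stood at 4.91, 3.75 and 2.81 RPM at 2M and at 3.68, 5.88 and 4.75 RPM at 18M, which rests on 59 to 138 reads per library. It fell under the minimum of 10 RPM, and with a minimum of 1 RPM its log2 fold change was 0.26 (SE 0.21, interval -0.24 to 0.76, adjusted p = 0.523).

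The myeloid mmu-miR-223-3p did not differ detectably. It stood at 57.2, 60.7 and 69.6 RPM at 2M and at 57.8, 57.7 and 76.3 RPM at 18M. The highest library of each age was replicate 3, and the groups overlapped over most of their range. The log2 fold change was 0.03 (SE 0.15, interval -0.34 to 0.39, adjusted p = 0.931).

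**Figure D2:**
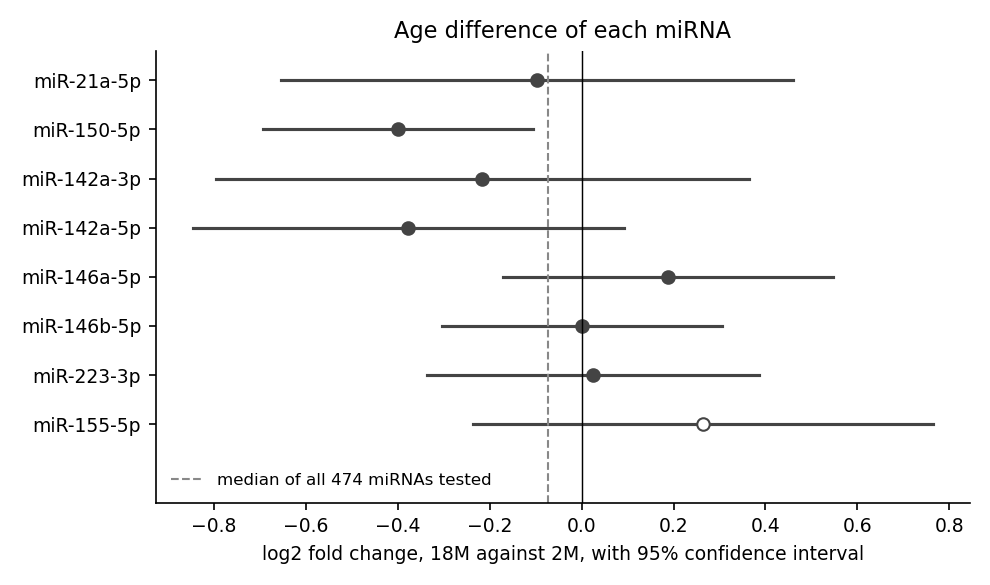
Log2 fold change of each miRNA at 18M against 2M from limma on log2(RPM + 1), with its 95% confidence interval, and the median of all 474 miRNAs tested as a dashed line at -0.07. The interval of mmu-miR-150-5p, -0.69 to -0.11, lies below 0, the other intervals include 0, and mmu-miR-155-5p (open symbol) is from the test with a minimum of 1 RPM.

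A list of 8 other miRNAs of immune cells or inflammation gave no call either. Of these, 5 passed the minimum of 10 RPM, 2 were higher and 3 lower on average at 18M, and 0 were called. The most abundant of the 8, miR-125a-5p, stood at 6848 to 10949 RPM. The macrophage miRNA miR-511-3p, from an intron of the mannose receptor gene, stood at only 0.525 to 1.28 RPM. It was not tested, nor were miR-511-5p and miR-147-3p, so that the absence of calls does not cover them. miR-342-5p was lower without overlap, 83.3 to 94.5 RPM at 2M against 76.1 to 81.4 RPM at 18M, with a log2 fold change of -0.15 (limma adjusted p = 0.478). Of all miRNAs tested, 19.2% were lower without overlap.

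In the strand loaded into the RISC, the members differed greatly. The ratio of mmu-miR-142a-3p to mmu-miR-142a-5p was only 2.24 to 3.80, so that both arms of this hairpin were loaded. On the log2 scale it was 1.16, 1.73 and 1.47 at 2M and 1.40, 1.53 and 1.93 at 18M. The groups overlapped, and the difference of 0.16 had an exact permutation p of 0.5, where 0.1 is the smallest that 3 against 3 libraries can give (two-sided). With only the most abundant read of each arm, the difference was 0.31, the ages did not overlap, and the exact permutation p was 0.1. That read held only 22.3% to 35.2% of the reads of the 3p arm and 37.6% to 47.0% of those of the 5p arm. How often such a ratio is without overlap in other hairpins was not counted. For the other hairpins the opposite arm was far rarer. The mean of miR-21a-3p, at 9.89 to 14.7 RPM, was 427-fold below its partner, that of miR-150-3p 1064-fold, that of miR-146a-3p 1348-fold and that of miR-146b-3p 63.0-fold. miR-223-5p had 6 reads over all libraries, and miR-155-3p was not listed. The ratio of mmu-miR-146a-5p to mmu-miR-146b-5p was 1.24, 1.26 and 1.38 at 2M and 1.39, 1.34 and 1.70 at 18M, with overlap and an exact permutation p of 0.2.

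The arms of miR-142a were loaded with more than 1 start each. Reads are written as DNA, and capitals mark bases 2 to 8 of each read, so that the shift of the seed can be followed.
mmu-miR-142a-3p, start of RefSeq: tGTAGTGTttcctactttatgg
mmu-miR-142a-3p, start 1 base later: gTAGTGTTtcctactttatgga
mmu-miR-142a-5p, start of RefSeq: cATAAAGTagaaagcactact
mmu-miR-142a-5p, start 2 bases earlier: cCCATAAAgtagaaagcactac
These are the 2 most abundant reads of each arm.

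For mmu-miR-142a-3p, the RefSeq start took 42.5%, 50.1% and 45.0% of reads at 2M and 46.9%, 40.8% and 48.8% at 18M. The start 1 base later took 48.6%, 40.3% and 47.3% at 2M and 43.6%, 50.7% and 42.5% at 18M. Neither start predominated in all libraries, and the ages overlapped. The 6mer seed viability, which is the mean survival of 3 mouse cell lines given a duplex with that seed and is low for a toxic seed, is 75.8% for the first start (GUAGUG) and 57.6% for the second (UAGUGU). Rarer starts 2 and 3 bases later took 2.74% and 5.15% of reads and carry seeds of 52.6% and 35.8% viability. In all, 54.5% of the reads of mmu-miR-142a-3p started elsewhere than its most abundant read, and of the 474 miRNAs only 11 had a higher share. The median over the 474 was 4.10%.

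mmu-miR-142a-5p showed a comparable split. Its RefSeq start (seed AUAAAG, viability 79.1%) took 56.5% to 67.7% of reads, and the start 2 bases earlier (seed CCAUAA, viability 68.5%) took 27.5% to 36.8%. In single libraries, the RefSeq start took 59.9%, 56.5% and 59.2% of reads at 2M and 67.7%, 57.0% and 62.8% at 18M, with overlap. A share of 39.5% started elsewhere than the main read, and 41 miRNAs had a higher share. mmu-miR-223-3p was next, with 11.9% of its reads starting 1 base later. For the other 5 members, 1.54% to 3.24% of reads had another start. With 1975 reads of mmu-miR-142a-5p in the library with fewest, a share of 50% has a Wilson 95% interval of 47.8% to 52.2%, which covers counting error only since reads are not independent molecules.

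**Figure D3:**
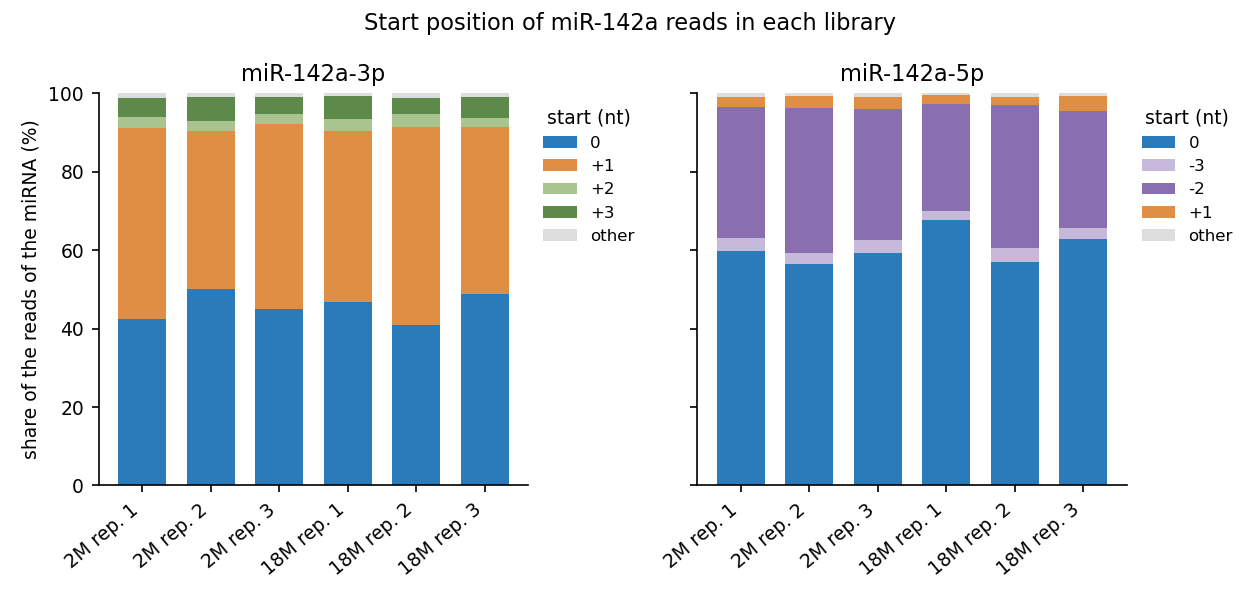
Share of the reads of mmu-miR-142a-3p (left) and mmu-miR-142a-5p (right) in each library by start, in bases from the RefSeq start (0). Starts 0 and +1 each hold 40.3% to 50.7% of the reads of the 3p arm, and start -2 holds 27.5% to 36.8% of those of the 5p arm, with no separation of the ages.

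The members differed in the toxicity of their seeds. The main seed of mmu-miR-21a-5p (AGCUUA) has a viability of 80.2% and that of mmu-miR-150-5p 69.3%. mmu-miR-146a-5p and mmu-miR-146b-5p share GAGAAC, with 51.6%, mmu-miR-155-5p has UAAUGC with 42.9% and mmu-miR-223-3p has GUCAGU with 31.3%. Of the 4032 seeds in the table, 14.6% had a viability at or below the last value. Weighted by reads, the 8 together had a mean viability of 73.0% to 75.0% per library, beside 57.4% to 58.2% for all reads. 2M replicate 3, the library rich in mmu-miR-21a-5p, had the highest value for the 8.

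For several seeds the members gave the great majority of the reads in the RISC. They gave 98.3% of the reads with the seed of mmu-miR-21a-5p, 98.4% of those with the second seed of mmu-miR-142a-3p, 94.3% of those with the second seed of mmu-miR-142a-5p, 82.5% of those with the first seed of mmu-miR-142a-3p and 93.3% of those with the seed of mmu-miR-150-5p, where miR-532-3p was next with 140.3 RPM. mmu-miR-223-3p gave 87.2% of the reads with its seed. mmu-miR-146a-5p gave 57.1% of the reads with GAGAAC and mmu-miR-146b-5p gave 41.5%. By contrast, the first seed of mmu-miR-142a-5p was shared with miR-9-3p, at 36.9 RPM, and only 63.2% of its reads came from the member. mmu-miR-155-5p gave 25.5% of the reads with its seed, most of the rest being reads without a miRNA label.

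At the 3′ end, mmu-miR-223-3p and mmu-miR-146a-5p carried bases that their hairpins do not encode. Their most abundant reads with an added base, and the main read of mmu-miR-146b-5p for comparison, are shown with capitals at bases 2 to 8.
mmu-miR-223-3p, added T: tGTCAGTTtgtcaaataccccat
mmu-miR-146a-5p, added T: tGAGAACTgaattccatgggttt
mmu-miR-146b-5p, no added base: tGAGAACTgaattccataggct
The read of mmu-miR-223-3p with the added U (T in the read) was its most abundant read of all, at 16.9, 14.7 and 16.3 RPM at 2M and 15.9, 16.7 and 20.7 RPM at 18M. That of mmu-miR-146a-5p was its second read, at 62.4 to 84.1 RPM at 2M and 66.8 to 100.7 RPM at 18M. Both overlapped between ages.

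Over all reads that could be placed on the RefSeq hairpin, added bases that were all U were carried by 45.3%, 42.6% and 35.1% of the reads of mmu-miR-223-3p at 2M and by 40.1%, 45.7% and 40.8% at 18M. Only 10 of the 370 miRNAs that could be placed had a higher mean share, and the median was 3.87%. For mmu-miR-146a-5p the share was 26.2%, 26.3% and 26.2% at 2M and 23.5%, 26.9% and 28.3% at 18M, and 20 miRNAs had a higher mean. mmu-miR-146b-5p, of the same seed, had added U in only 2.17% to 2.71% of reads and added A in 6.56% to 7.70%. In each of the 6 libraries, mmu-miR-146a-5p had more added U than mmu-miR-146b-5p. mmu-miR-21a-5p had added U in 0.150% to 0.233% of reads. mmu-miR-155-5p carried a single added A in 8.44% to 11.9% of its few reads. An encoded base and an added base of the same letter cannot be told apart in a read, so that these shares leave out such additions.

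Of 6 members with a placed hairpin and at least 10 RPM, the ages did not overlap for added U in 0 (14.3% of all miRNAs), for added A in 2 (19.5%) and for any departure from the hairpin in 2 (20.0%). These were mmu-miR-21a-5p, lower at 18M, and mmu-miR-146b-5p, higher at 18M. Any departure was found in 2.99%, 3.22% and 6.26% of the reads of mmu-miR-21a-5p at 2M and in 2.63%, 2.92% and 2.71% at 18M, and in 10.6%, 10.6% and 10.1% of those of mmu-miR-146b-5p at 2M and in 11.4%, 10.6% and 11.3% at 18M. The gap between ages was small beside the distance of 2M replicate 3 from the other 2M libraries for the first, and within 0.1 percentage points at its nearest for the second.

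**Figure D4:**
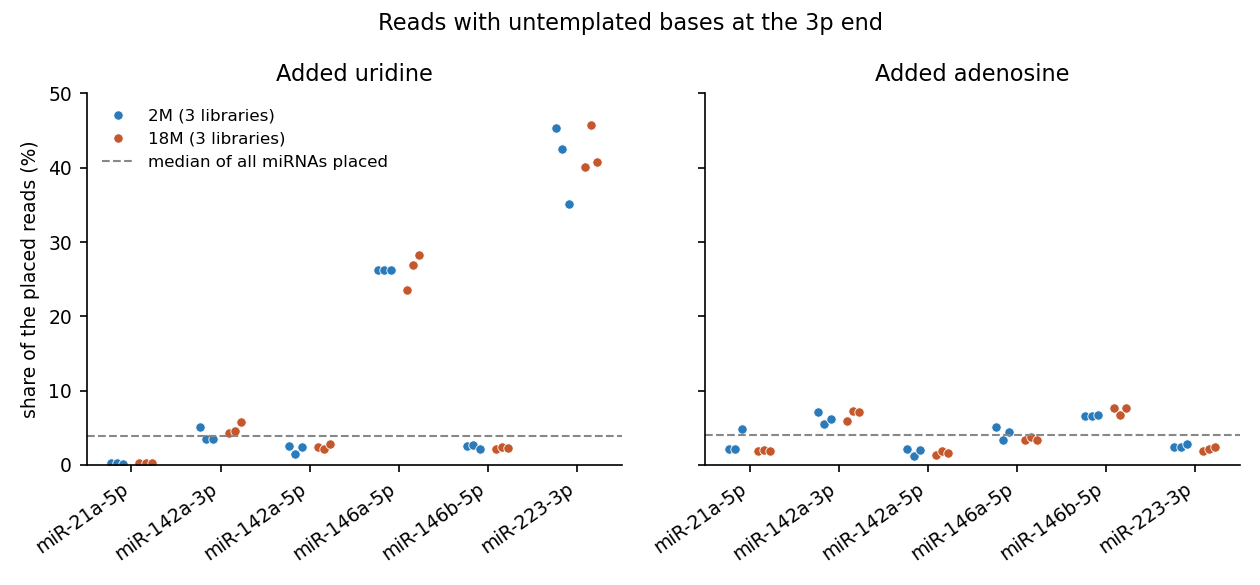
Share of the placed reads whose 3′ end carries added uridine (left) or added adenosine (right), per library at 2M (blue) and 18M (orange), with the median over all 370 placed miRNAs dashed. mmu-miR-223-3p (35.1% to 45.7%) and mmu-miR-146a-5p (23.5% to 28.3%) stand far above the median of 3.87% for uridine at both ages.

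The read length of mmu-miR-21a-5p and mmu-miR-150-5p varied between libraries. For mmu-miR-150-5p, reads shorter than the main read of 22 nt took 19.8%, 18.1% and 17.7% at 2M and 21.8%, 24.7% and 25.0% at 18M. All 18M libraries were above all 2M libraries, with means of 18.5% ± 1.14 and 23.9% ± 1.76 (SD, n = 3) and an exact permutation p of 0.1, the smallest possible. The mean length was 22.01 to 22.03 nt at 2M and 21.92 to 21.95 nt at 18M. Shares of shorter reads without overlap were found for 1 of the 7 tested members and for 14.8% of all miRNAs. For the share of the main read (15.0% of all miRNAs without overlap), of other starts (12.9%) and of longer reads (18.8%), 0 of the 7 members were without overlap.

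Single reads of mmu-miR-150-5p followed this pattern of length only in part. Its main read of 22 nt was at 1709.6, 1819 and 1658 RPM at 2M and at 1398, 1050.4 and 1283 RPM at 18M, without overlap. Its second read, of 21 nt, was at 507, 456 and 407 RPM at 2M and at 431, 434 and 503 RPM at 18M, with full overlap and a log2 fold change of 0.00 (SE 0.16). The reads of 23 nt ranked the third and the fourth were lower without overlap, from means of 274 and 189.7 RPM to 198 and 122 RPM. A rarer read of 21 nt was also lower without overlap, from a mean of 24.9 to 15.9 RPM. At an unadjusted limma p of 0.05, 5 of the 9 tested sequences of this miRNA were lower, against 4.63% of all sequences. None of the 9 passed after adjustment. The share of all sequences without overlap was not counted. These reads are parts of the total of mmu-miR-150-5p and are not separate evidence.

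For mmu-miR-21a-5p, 2M replicate 3 was rich in long reads. Reads of 24 nt took 6.45% there against 1.37% to 2.46% in the other 5 libraries. The 24-nt read that ends with an added A was at 50.7, 51.9 and 286 RPM at 2M and at 34.9, 38.4 and 40.9 RPM at 18M. The high total of mmu-miR-21a-5p in that library came with longer reads, and reads longer than the main read took 28.4%, 16.1% and 35.3% at 2M and 17.5%, 21.9% and 20.6% at 18M. Without 2M replicate 3, the 8 miRNAs together differed by -301 RPM between ages, in place of -1298 RPM.

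**Figure D5:**
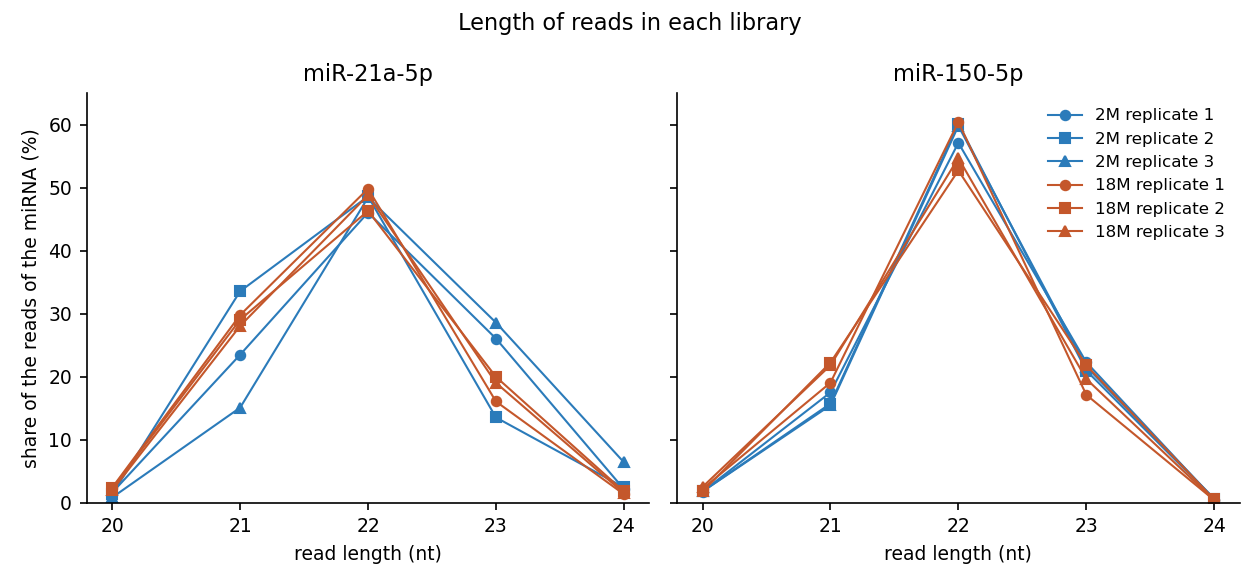
Share of the reads of mmu-miR-21a-5p (left) and mmu-miR-150-5p (right) by read length in nt, a line per library. At 24 nt, 2M replicate 3 stands at 6.45% of the reads of mmu-miR-21a-5p, and for mmu-miR-150-5p the 3 libraries at 18M lie above those at 2M at 21 nt.

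Single read sequences were tested in the same way. Of the members' sequences, 41 had a mean of at least 10 RPM, among 3281 in all. None of the 41 passed an adjusted p of 0.05, against 0.366% of all sequences. At an unadjusted p of 0.05, 1 of the 41 was higher at 18M (8.41% of all sequences) and 6 were lower (4.63%). The higher one, chosen here by its value, was the 20-nt read of mmu-miR-21a-5p that lacks the last 2 bases of the main read, at 63.3, 48.9 and 53.9 RPM at 2M and 107, 94.5 and 89.7 RPM at 18M, a log2 fold change of 0.80 (SE 0.16, limma adjusted p = 0.136). Of the 6 lower ones, 5 were reads of mmu-miR-150-5p, which are not independent of each other or of the total of that miRNA. The remaining one was the read of mmu-miR-142a-5p that starts 2 bases earlier, at 22.8, 27.6 and 21.1 RPM at 2M and 18.8, 15.0 and 14.6 RPM at 18M, a log2 fold change of -0.54 (SE 0.17, limma adjusted p = 0.276). DESeq2 called 5 of the 41, of which 4 were lower reads of mmu-miR-150-5p and 1 was the 20-nt read of mmu-miR-21a-5p, and it called 151 of all 3281 sequences, where limma called 12 and edgeR 9.

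No member was the nearest neighbour of another in its pattern over the 6 libraries. By the root mean square difference of centred log2(RPM + 1) values, mmu-miR-150-5p was nearest to miR-425-5p (0.046), miR-143-3p (0.058) and miR-22-3p (0.070), and mmu-miR-21a-5p to miR-92a-3p (0.116). mmu-miR-142a-3p was nearest to miR-300-3p (0.070), and mmu-miR-142a-5p to miR-186-3p (0.127). The nearest of mmu-miR-146a-5p was miR-501-5p (0.073), of mmu-miR-146b-5p miR-504-5p (0.045) and of mmu-miR-223-3p miR-3085-3p (0.078). With 6 libraries that share their depth and scaling, these are descriptions only.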

How the data were processed

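Small RNAs from an Argonaute pull-down (Ago-RP-Seq) of cortex and hippocampus were sequenced on a Illumina HiSeq instrument in 3 libraries at 2M and 3 at 18M. RNA of 19-35 nt had been gel extracted. The authors trimmed the reads (Trim Galore, per the submitters' processing notes), removed rare reads, matched sequences to mouse small RNAs with the SPOROS pipeline, and deposited RPM (reads scaled to a common library total) per sequence. Versions were not given in the sources used here. The deposited 6mer seed viability is a score in percent of control, averaged over 3 mouse cell lines. No per-sample columns outside the 6 libraries (0) were present. Gel extraction, ligation and the removal of rare reads may all lower the levels of rare miRNAs. Scaling to a common total makes every level relative to all other R-sRNAs.

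From these values, RPM was added up per miRNA label, a sequence with several labels counting for each. All values (100%) were whole multiples of a step within 0.1 step, so whole reads were recovered. limma 3.58.1 (R 4.3.3, lmFit and eBayes with trend) was run on log2(RPM + 1), a scale that understates changes of low features, where the mean over the libraries reached 10 RPM, and p-values were adjusted over all such features by Benjamini-Hochberg. edgeR 4.0.16 and DESeq2 1.42.0 were run on the whole reads. Shares and ratios per library were compared with exact two-sided permutation tests. A read was placed on its RefSeq hairpin by its first 15 bases, and bases after the first mismatch were counted as added, a measure chosen after seeing the data. The fits were tested on simulated data with changes larger than those of the members, which gives no measure of power for the differences reported here. Groups came from the labels.

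All 8 miRNAs were named, with the up to 4 most abundant reads of each, their opposite arms and the nearest 3 miRNAs. The members and lists were chosen with earlier results of these data known. Fits with other scaling, filters, pseudocounts and samples are given in the closing section.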

Additional observations from a re-analysis of the deposited data

How the results depend on the processing

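In all 18 other settings, 0 member miRNAs were called, the range without a single library being 0 to 0. The number of member read sequences called was 5 with DESeq2 and 0 in the other 14 settings, 0 to 0 without a single library. All 3281 sequences together had 0 calls when any library was left out. The count over all 474 miRNAs, 23 in the report, was 14 with median-of-ratios scaling, 14 with edgeR, 15 without the trend, 46 with DESeq2 and 0 to 15 without a single library. It was 3 of 1101 without a filter, 2 of 276 at a minimum of 100 RPM, 12 of 463 with reads of the main start and 15 of 459 with reads of 1 label. Median-of-ratios scaling shifted the median over all miRNAs by 0.09 (log2), and that of mmu-miR-150-5p to -0.30. The log2 fold change of mmu-miR-150-5p stayed between -0.44 and -0.30, with adjusted p from 0.069 to 0.322. Without a single library, signs turned for the log2 fold changes of mmu-miR-21a-5p (-0.26 to 0.16), mmu-miR-146b-5p (-0.077 to 0.060) and mmu-miR-223-3p (-0.11 to 0.10), the share of other starts of mmu-miR-142a-3p (-1.79 to 2.37 percentage points) and added U of mmu-miR-223-3p (-1.76 to 3.35 percentage points), none of which was called. The difference in the log2 arm ratio of miR-142a was 0.31 with only the main read of each arm (exact permutation p = 0.1, ages without overlap) and 0.01 to 0.30 without a single library, and that of the summed level was -1872 to -301 RPM.

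Replicate numbers did not pair the libraries: deviations of same-numbered libraries correlated at -0.22 to -0.10. With the replicate number as a block, 0 members, 0 member sequences and 1 of 474 miRNAs were called. At 59 to 138 reads per library, a share of 50% of mmu-miR-155-5p has an interval as wide as 38.4% to 63.2%, so that smaller differences in its reads were not detectable.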
